A study of Homo sapiens with 2 samples.

Results

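The miRNAs of the placental cluster on chromosome 19 were examined in exosomes of FaDu cells, a cell line of human hypopharyngeal squamous cell carcinoma. Members were chosen by name alone, as the entries miR-498, miR-512, miR-515 to miR-527, miR-1283 and miR-1323 with any letter or arm, which gave 48 of the 2549 human miRNAs on the array. Exosomes are small vesicles that cells release and that carry RNA. The cells had received either a control plasmid (oe-NC) or a plasmid that overexpresses the long noncoding RNA HOTTIP (oe-HOTTIP), and 1 one-colour Agilent array was hybridized for each group. The labels describe both treatments as plasmid lentivirus, whereas the methods describe lipid transfection of plasmids into FaDu cells. With 1 array per group, no difference between them has a replicate check and no statistical test between them was run. All errors given are the SD over the repeated spots of a miRNA on 1 array, which is technical error only.

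This cluster is specific to primates, is imprinted, and is transcribed from the paternal allele mainly in the placenta, where trophoblast cells load its miRNAs into exosomes that reach the mother's blood. Its hairpins arose by repeated duplication, so many of the mature miRNAs differ by few bases and several share a seed, the stretch near the 5′ end that pairs with target mRNAs. Some of the seeds are the same as those of miR-302 and miR-372, which are active in embryonic stem cells, or of the miR-17 family, which promotes proliferation in many cell types. The cluster is silent in most adult tissues and has been found active again in some tumours.

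It is not settled which array belongs to which group. For each array the title and the treatment agree, but a free-text description gives the opposite group. Each column of the authors' normalized table also ranks the miRNAs as the other array does. Spearman's rho was 1.00 for both columns, over the 388 (oe-NC column) and 315 (oe-HOTTIP column) miRNAs in the comparison. With the array of its own name it was 0.766 over 261 miRNAs and 0.764 over 258. Here the arrays go by their titles and are called the oe-NC array and the oe-HOTTIP array. A count that is the same on both arrays does not depend on the naming, whereas each difference given would change its sign if the descriptions held. HOTTIP itself is no target of a miRNA array and could not serve as a check.

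None of the 48 miRNAs was detected on either array, and in the authors' table all 48 stood in both columns at 1e-06, the value given there to undetected miRNAs. By contrast, 328 of all 2549 miRNAs (12.9%) were detected on the oe-NC array and 390 (15.3%) on the oe-HOTTIP array. Detection is the call of the scanner software for each miRNA, and it was given exactly where the summed signal of at least 1 probe was over 3 times its own error. No member therefore had a fold change, and none was past the 2-fold threshold of the methods in either direction. Among all miRNAs, 115 (4.51%) were at least 2-fold lower on the oe-HOTTIP array and 155 (6.08%) at least 2-fold higher. The absence of a call says that the members were not detectable with these arrays, not that the exosomes lacked them, and fewer vesicles with a miRNA cannot be told apart from fewer copies in each.

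A mature sequence was found in RefSeq for 46 of the 48 members, and the other two, miR-518f-3p and miR-522-3p, are named only. By the RefSeq names matched to them, the 46 have their loci in 40 miRNA genes on the plus strand of chromosome 19. These run from base 53666692 to base 53761210 of GRCh38.p14, a span of 94.5 kb. Genes listed for the same sequence under another name alone are not counted. Of the 48 members, 17 come from the 5p arm of their hairpin, 26 from the 3p arm, and for 5 no arm is given. The arms of miR-498, miR-520b and miR-520e, which the array names do not hold, were taken from their later names. The sequences of the 12 members with the highest mean signal over both arrays are shown because the values described below are mainly theirs. Each is written 5′ to 3′ with its seed, bases 2 to 8, in capitals.
miR-520b: aAAGUGCUuccuuuuagaggg
miR-520e: aAAGUGCUuccuuuuugaggg
miR-520d-3p: aAAGUGCUucucuuuggugggu
miR-520a-3p: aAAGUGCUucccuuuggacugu
miR-520c-3p: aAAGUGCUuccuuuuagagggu
miR-520f-3p: aAGUGCUUccuuuuagaggguu
miR-519b-3p: aAAGUGCAuccuuuuagagguu
miR-519c-3p: aAAGUGCAucuuuuuagaggau
miR-519d-3p: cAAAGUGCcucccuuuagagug
miR-520g-3p: aCAAAGUGcuucccuuuagagugu
miR-517c-3p: aUCGUGCAuccuuuuagagugu
miR-498: uUUCAAGCcagggggcguuuuuc

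Along the plus strand of chromosome 19 the first of these is miR-498, in the gene MIR498 at chr19:53674230-53674252, followed by miR-520e in MIR520E at chr19:53675764-53675784. MIR520F holds miR-520f-3p at chr19:53682213-53682234, and MIR519C holds miR-519c-3p at chr19:53686522-53686543. MIR520A holds miR-520a-3p at chr19:53690933-53690954, and MIR519B holds miR-519b-3p at chr19:53695263-53695284. These are followed by miR-520b in MIR520B at chr19:53701267-53701287 and miR-520c-3p in MIR520C at chr19:53707506-53707527. Further on lie miR-519d-3p in MIR519D at chr19:53713400-53713421, miR-520d-3p in MIR520D at chr19:53720149-53720170 and miR-520g-3p in MIR520G at chr19:53722220-53722243. The last is miR-517c-3p in MIR517C at chr19:53741369-53741390. All of these are positions of the mature miRNA within its gene.

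Signals are background-subtracted intensities in arbitrary units, with 0 at the estimated background, so that values below 0 occur. Probes differ in how strongly they bind, and the signals of different miRNAs are therefore given side by side as distances from background and not as relative abundances. On the oe-NC array the member signals had a lowest value of -2.83, a median of 0.262 and a highest of 3.74. On the oe-HOTTIP array they had a lowest value of -1.95, a median of 0.517 and a highest of 5.93. The members thus lay on both sides of the background, 26 of 48 above 0 on the first array and 27 on the second. The typical SD over the spots of a member was of the same order, with a median of 1.70 and 1.81.

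Negative control spots, which carry no probe for a human miRNA, gave 3.87 ± 2.37 (SD, 976 spots) on the oe-NC array and 3.45 ± 2.21 (SD, 975 spots) on the other. No member was above that mean on the oe-NC array, and 2 members, miR-520b and miR-520e, were above it on the oe-HOTTIP array. Of the 2044 other miRNAs detected on neither array, only 23 and 61 were above it, so the count is not particular to the members. None of the 48 was above the mean plus 3 SD, which was 10.99 on the first array and 10.08 on the second. The median of the detected miRNAs was 17.8 and 22.5. Detection is a call on single probes rather than on the mean signal, and the lowest detected miRNA had a mean signal of only 0.976 on the oe-NC array and 2.43 on the other, with 10 and 28 detected miRNAs dimmer than the brightest member.

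**Figure D1:**
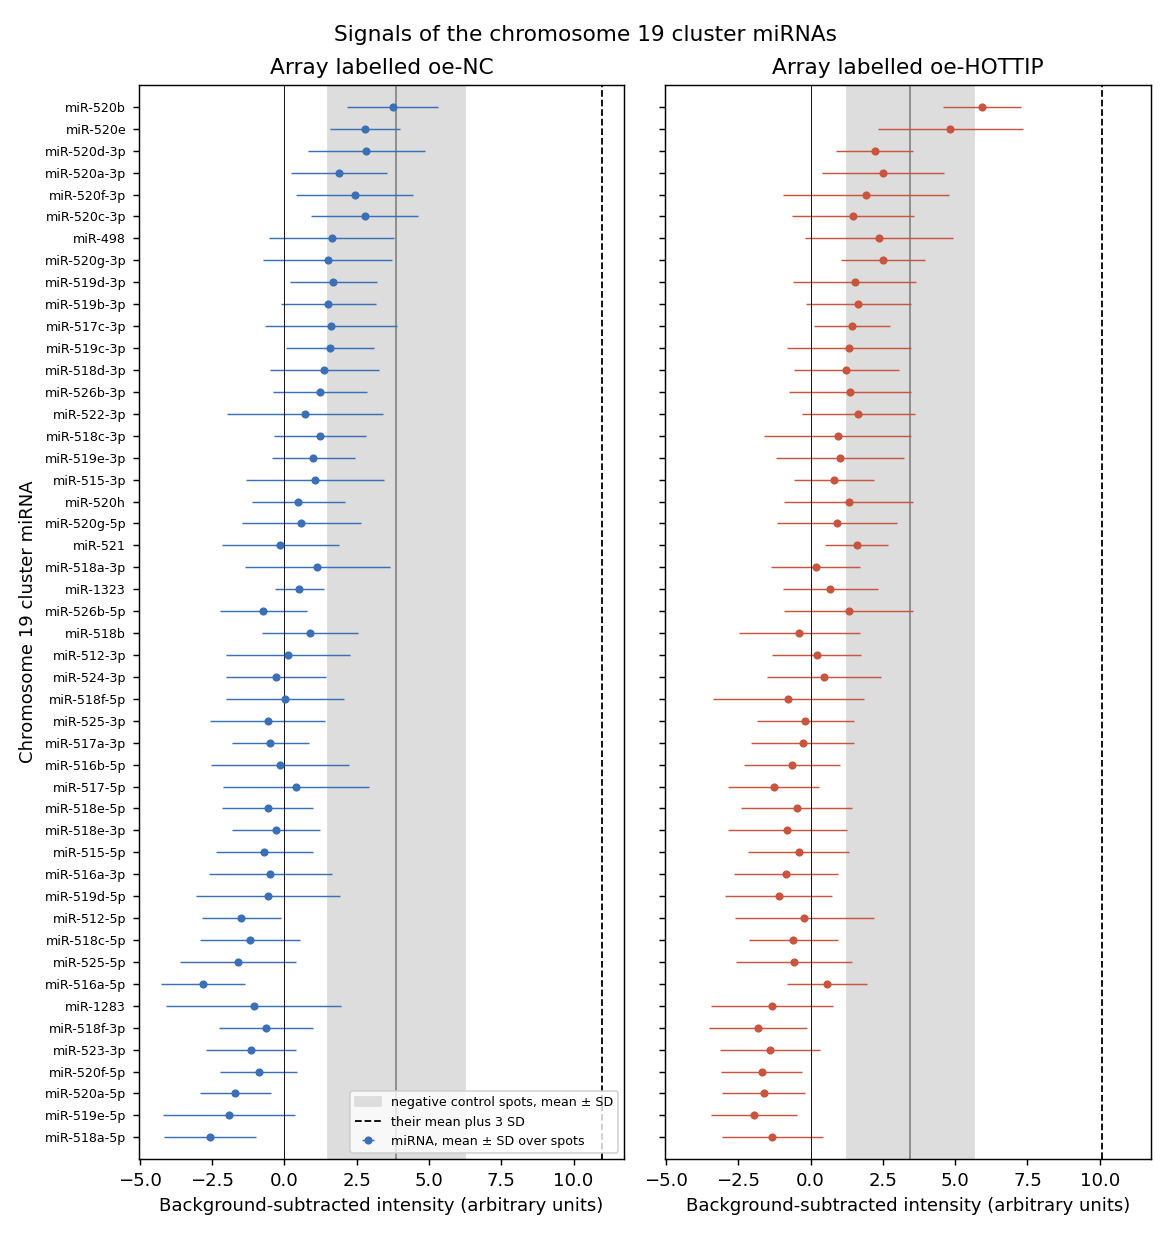
The background-subtracted intensity of each of the 48 members (x axis, arbitrary units, linear) is plotted by miRNA (y axis, ordered by mean over both arrays), for the oe-NC array on the left and oe-HOTTIP on the right. Points are means and bars the SD over the spots of that array, the grey band is the mean ± SD of the negative control spots and the dashed line their mean plus 3 SD, which no member reaches.

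The members were set apart only slightly from the other 2044 miRNAs that were detected on neither array. Those had a median signal of -0.837 on the oe-NC array and -0.615 on the other, against 0.262 and 0.517 for the members. Signals above 0 were seen for 54.2% and 56.3% of the members and for 31.0% and 35.4% of the other undetected miRNAs. The brightest member was nevertheless within the range of the others, of which 27 and 5 were brighter, up to 6.70 and 7.23. These are descriptions of 2 arrays, and the part of base composition and of related sequence in this difference was not tested.

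Single spots were examined next. Each member had 2 to 4 probes and 20 spots per array, 960 spots in all. Among spots not marked as outliers, none of 938 member spots on the oe-NC array and none of 937 on the other was well above background by the scanner software. Among all miRNA spots the share was 8.33% and 10.4%. With flagged spots included there were 6 such member spots, and all 6 carried the outlier flag. They were 1 spot each of miR-520f-3p (20.6), miR-518a-3p (15.7), miR-525-5p (28.6) and miR-526b-3p (63.8) on the oe-NC array, and of miR-525-3p (550.2) and miR-512-5p (48.5) on the oe-HOTTIP array. No member had such a spot on both arrays, and no member spot was saturated.

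A weaker mark of the software, a spot that is positive and significant against its local background, was given to 226 of the 960 member spots on each array (23.5%). It was given to 14% and 14.3% of the spots of the other undetected miRNAs. Over all miRNA spots of the array, detected ones included, the share was 25.3% and 28.0%, so the members were below it. These marks were spread unevenly over the members. Of the 20 spots of miR-520b, 17 had the mark on the oe-NC array and all 20 on the other. For miR-520e these were 14 and 17 of 20 spots. Both miRNAs are 3p-arm products that carry the seed AAGUGCU.

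The closest approach to detection was that of miR-520b. Its signal was 3.74 ± 1.58 (SD, 20 spots) on the oe-NC array and 5.93 ± 1.35 (SD, 19 spots) on the other. The spots used ranged from 1.13 to 6.78 and from 2.96 to 8.24, so that the spots of the arrays overlapped. Its best probe sum was 1.83 and 2.58 times its error, where 3 is needed for a call. Both of its probes were higher on the oe-HOTTIP array, at 4.004 and 3.48 against 6.20 and 5.66, without scaling between the arrays. Most of the detected miRNAs listed further below were also brighter on that array without scaling. For miR-20a-5p (138 and 235) the log2 difference after scaling was 0.120.

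Next to it stood miR-520e, whose mature sequence differs from that of miR-520b by A16U, with positions counted from 1 at the 5′ end of miR-520b. The base is in capitals here to show how little sequence tells the pair apart.
miR-520b: aaagugcuuccuuuuAgaggg
miR-520e: aaagugcuuccuuuuUgaggg
The signal of miR-520e was 2.79 ± 1.21 (SD, 20 spots) on the oe-NC array and 4.84 ± 2.50 (SD, 20 spots) on the other, and its best probe sum was 1.65 and 2.20 times its error. The arrays did not measure how far a probe for one of the pair also binds the other, so their signals cannot be read as independent. At 2 errors in place of 3, a level chosen after the data were seen, these would be the only members called, both on the oe-HOTTIP array and none on the oe-NC array. That level would call 15.8% of all miRNAs on the oe-NC array and 19.5% on the other.

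The mature sequence of miR-520b is also contained whole in miR-520c-3p, which has 1 more base at its 3′ end. That longer form gave 2.77 ± 1.85 (SD, 20 spots) and 1.46 ± 2.11 (SD, 20 spots), lower on the oe-HOTTIP array where miR-520b was higher. Its best probe sum was 1.35 and 0.641 times its error. For miR-520d-3p, which has the same seed AAGUGCU, the signal was 2.84 ± 2.03 and 2.22 ± 1.33, and its best probe sum was 1.53 and 1.29 times its error. For miR-520a-3p the signal was 1.89 ± 1.65 and 2.50 ± 2.10, and its best probe sum 0.994 and 1.26 times its error. Both stood further from the call than miR-520b and miR-520e on either array. Over the 5 members with this seed, which is that of miR-302 and miR-372, the median was 2.79 and 2.50.

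**Figure D2:**
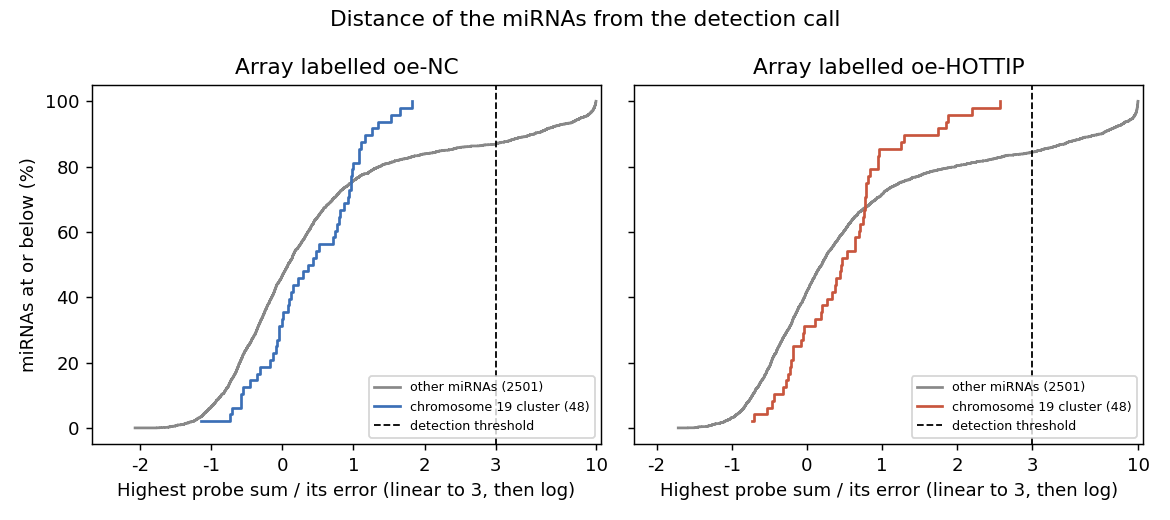
For each miRNA the highest probe sum divided by its error (x axis, linear to 3 and logarithmic beyond) is plotted against the percent of miRNAs at or below that value (y axis), for the 48 members in colour and the 2501 others in grey, on both arrays. The dashed line marks the detection threshold of 3, and the members end at 1.83 on the oe-NC array and at 2.58 on the oe-HOTTIP array, both of them miR-520b.

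The remaining members with the highest signals were 3p-arm products except miR-498. The signal of miR-520f-3p, whose seed AGUGCUU is shifted by 1 base against that of its relatives, was 2.43 ± 2.03 and 1.93 ± 2.87 on the oe-NC and oe-HOTTIP arrays. For miR-520g-3p it was 1.49 ± 2.21 and 2.49 ± 1.45, with probes at 0.613 and 4.37 on the oe-HOTTIP array. For miR-519d-3p, which has the seed AAAGUGC of the miR-17 family, it was 1.68 ± 1.504 and 1.52 ± 2.12. In each of these the SD over spots was larger than the signal on 1 array and smaller on the other. It is the spread of single spots and not the error of the mean, and no order among these miRNAs was tested or is read.
The related pair miR-519b-3p and miR-519c-3p gave 1.52 ± 1.64 and 1.65 ± 1.81 for the first, and 1.56 ± 1.53 and 1.33 ± 2.15 for the second. The 5p-arm product miR-498 gave 1.63 ± 2.18 and 2.38 ± 2.56, and its best probe sum reached 1.88 times its error on the oe-HOTTIP array. Its probes differed there, at 4.44 and 0.313. Outside these 12, the highest ratio on that array was that of miR-526b-5p, at 1.75, with a signal of -0.735 ± 1.504 and 1.32 ± 2.22. Its probes gave 4.12 and -1.49 on the oe-HOTTIP array. The SD is pooled within probes and leaves out such gaps between them. For miR-517c-3p the signal was 1.61 ± 2.28 and 1.43 ± 1.31. The other 36 members lay between -2.83 (miR-516a-5p) and 1.39 (miR-518d-3p) on the oe-NC array, and between -1.95 (miR-519e-5p) and 1.65 (miR-522-3p) on the other.

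The next members are given for their known placental role and were chosen after their values were seen. The signal of miR-517a-3p, known as a placental product in maternal blood, was -0.483 ± 1.32 on the oe-NC array and -0.271 ± 1.78 on the other. Its sequence differs from that of miR-517c-3p by C12U, counted from the 5′ end of miR-517a-3p and shown in capitals, and RefSeq lists the same sequence as miR-517b-3p.
miR-517a-3p: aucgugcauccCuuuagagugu
miR-517c-3p: aucgugcauccUuuuagagugu
For miR-512-3p the signal was 0.119 ± 2.15 and 0.216 ± 1.55, and for miR-515-5p it was -0.698 ± 1.68 and -0.411 ± 1.76. These values were smaller than the SD over their spots, which was not so for all members, such as miR-517c-3p on the oe-HOTTIP array (1.43 ± 1.31).

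The difference between the arrays was within the spread of single spots for nearly all members. Without any scaling it ran from -1.68 to 3.39 intensity units with a median of 0.0864, close to the 0.0982 of the other undetected miRNAs, and 26 members were higher on the oe-HOTTIP array and 22 lower. It was larger than the combined SD of the spots on both arrays for 2 of the 48 (4.17%), a share below the 5.43% of the other undetected miRNAs. One was miR-520b, with a difference of 2.19 against a combined SD of 2.08. The other was miR-516a-5p, at -2.83 ± 1.45 and 0.565 ± 1.39, for which one of its probes went from -2.45 to 2.21 and the other from -3.20 to -1.08. Since neither miRNA was detected on either array, these differences have no fold, and they were not corrected for the brightness of the arrays.

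The pattern of signals across members recurred on both arrays. Over the 48 members the signals of the arrays had a Pearson r of 0.80 and a Spearman rho of 0.82, and over the other undetected miRNAs these were 0.72 and 0.77. The same probes stand on both arrays, so the points share probe sequence and background, and the values are descriptive. The signal was also related to base composition. Spearman's rho between the mean signal over both arrays and the GC content of the mature miRNA was -0.394 over the 46 members with a sequence and -0.403 over 1818 other undetected miRNAs, and the median GC content was 46.5% in the members and 50% in the others.

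The 46 sequences held 30 different seeds, of which 11 were shared by more than 1 member, 27 members in all. After the values were seen, the letters AAGUGC were searched for in bases 1 to 10 of each mature miRNA, on its own strand only, because 10 of the 12 brightest members held them, in a stretch that overlaps the seed. They were found in 14 members, whose signals ran from 0.119 to 3.74 and from 0.216 to 5.93. Since bright members prompted the choice of the letters, nothing is read from these signals. The letters were present in 15 of 2205 other miRNAs (0.680%), and the 10 of these that were undetected on both arrays had a median of 0.0755 and 0.851. The 4 members with the seed AAAGCGC (miR-518a-3p, miR-518b, miR-518c-3p and miR-518d-3p) had a median of 1.18 and 0.555.

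The 5p members had a median signal of -0.735 on the oe-NC array and -0.597 on the other, and the 3p members 1.22 and 1.28. In the other undetected miRNAs the medians were -0.885 and -0.505 for 5p and -0.721 and -0.628 for 3p. Arms were paired by the number and letter of their names, which gave 15 pairs, and the 3p signal was the higher on both arrays in 11. In 548 other pairs with both arms undetected this was so in 40.3%. The widest gaps on both arrays together were those of miR-520a, with -1.70 for 5p and 1.89 for 3p on the oe-NC array and -1.63 and 2.50 on the other, and of miR-520f, with -0.884 and 2.43, then -1.68 and 1.93. The exceptions were miR-516a, miR-517a, miR-518e and miR-518f. The pairs do not cover every hairpin, since some 5p products have several source genes. The exception of miR-517a depends on the pairing, because miR-517-5p (0.404 and -1.28) is also the 5p product of MIR517C, whose miR-517c-3p was higher on both arrays (1.61 and 1.43). Likewise the sequence of miR-518e-5p is also that of miR-519a-5p, miR-519b-5p, miR-519c-5p, miR-522-5p and miR-523-5p, which have no pair here. Against miR-518e-5p (-0.576 and -0.477), miR-519b-3p, miR-519c-3p and miR-522-3p were higher on both arrays. By contrast, miR-523-3p was lower on both (-1.15 and -1.40). The arms are read by different probes and none of them was detected, so these gaps are distances from background and not a ratio of the arms.

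The absence of calls was compared with miRNAs of the same neighbourhood, of related seed and of other cell types. The cluster of miR-371 to miR-373, which lies next to this one on chromosome 19 and is active in embryonic cells, also had 0 of 8 members detected, with signals from -1.79 to 0.797 and from -2.07 to 1.98. The miR-302 cluster with its member miR-367, a mark of embryonic stem cells, had 0 of 12 detected, with a highest signal of 2.64 (miR-302a-3p, on the oe-NC array). Neither list stood apart from the 48 members in this respect.

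The miR-17 family was detected in full on both arrays, 5 of 5 measured, among them miR-20a-5p at 138 ± 24.9 and 235 ± 37.7, miR-106b-5p at 133 ± 20.5 and 186 ± 24.2, miR-17-5p at 46.2 ± 11.2 and 90.9 ± 18.99, and miR-20b-5p at 5.44 ± 2.79 and 9.65 ± 4.64. The placental miR-519d-3p, which has the same seed, had 1.68 and 1.52. All signals of these lists are unscaled, so a higher value on the oe-HOTTIP array is not a fold. After scaling, the log2 differences of the family members named were 0.120, -0.164, 0.327 and 0.176 in the order given. Those of miR-21-5p and miR-205-5p were 0.098 and -0.411. Of the markers of squamous and epithelial cells 5 of 6 were detected on both arrays, led by miR-21-5p (577 ± 222 and 970 ± 282) and miR-205-5p (415 ± 70.3 and 490 ± 44.1), and miR-203a-3p was not detected (3.40 ± 2.05 and 4.13 ± 1.76). Of the markers of blood cells and serum 4 of 5 were detected on both, with summed signals of 2277 and 2609, almost all of it miR-451a, a miRNA of red blood cells (2233 ± 869 and 2552 ± 346). Epithelial markers were thus detected, apart from miR-203a-3p, but miR-21-5p is expressed by many other cell types too. No member of the placental cluster was detected beside these. The liver miR-122-5p was detected on both arrays (8.99 ± 3.75 and 14.8 ± 4.71), and neither of 2 miRNAs of neurons was detected on either. Of 3 miRNAs of muscle, miR-133a-3p was detected on the oe-NC array alone (8.94 ± 2.95 and 0.171 ± 1.98) and miR-206 on the oe-HOTTIP array alone (-1.11 ± 2.48 and 14.4 ± 2.78).

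**Figure D3:**
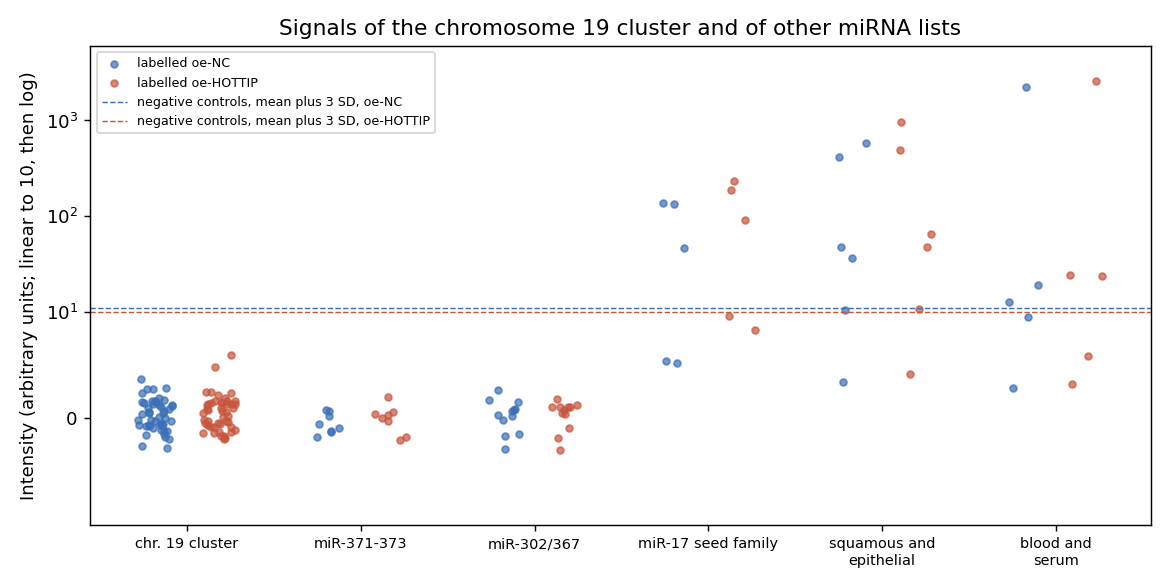
The background-subtracted intensity (y axis, arbitrary units, linear to 10 and logarithmic beyond) of each miRNA is plotted by list (x axis), with 1 point per miRNA and array and points spread sideways at random within a list. The dashed lines are the mean plus 3 SD of the negative control spots, 10.99 on the oe-NC array and 10.08 on the oe-HOTTIP array, and all points of the chromosome 19 cluster and of the first lists to its right, of embryonic miRNAs, lie below them, whereas the miR-17 seed family, the epithelial and the blood lists reach 235, 970 and 2552.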

How the data were processed

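The authors labelled 200 ng of exosomal RNA with Cy3 for each array, scanned human miRNA arrays (miRBase probes), extracted spots with Agilent Feature Extraction (10.10 in the submitters' notes, 11.5.1.1 in the scanner output) and normalized to the 90th percentile in GeneSpring. They deposited the scanner output, with a background-subtracted intensity per spot, summed probe intensities with their errors, and detection and outlier flags, and a table of normalized log2 values. The methods name a log2 transform and centring of genes on their median for clustering; whether the table holds centred values is not given in the sources used here, and both columns have a median of 1e-06.

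Without control and outlier-flagged spots, means were taken over the spots of a probe and then over the probes of a miRNA, and SDs over spots were pooled within probes. For folds, signals were scaled per array to the 90th percentile of the miRNAs that both arrays detected. A difference was called at 2-fold, and with detection on a single array the fold was a lower bound, taken against whichever was higher on the other array, its lowest detected signal or the signal of that miRNA. The members and all lists were chosen with earlier results of these data known. By rule, members detected or past 2-fold were named, then the brightest undetected ones up to 12, with others of identical sequence, and up to 4 examples of each other list. Members named beyond this rule, for their seed, arm, sequence neighbour, placental role, flagged spots or array difference, were chosen after their values were seen. Mature sequences came from RefSeq (GRCh38.p14), with miR-498, miR-520b and miR-520e matched under their later arm names. Alternatives were 5 scalings, normexp (offset 50, on median spot signals), summed intensity, brightest probe, outlier spots kept, other detection rules and the deposited table. The 2-fold calls from differences, not bounds or detection, were tested on simulated data. These held bright detected miRNAs with less spread than the real spots, so the test does not cover the members. The number of arrays limits precision. R 4.3.3 with limma 3.58.1 and Python 3.11.15 with matplotlib 3.10.9, pandas 2.3.3 and numpy 2.4.6 were used.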

Additional observations from a re-analysis of the deposited data

How the results depend on the processing

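The count of 0 detected members was the same when over 50% of the spots had to be well above background, when the mean had to pass the mean plus 3 SD of the negative controls, and in the authors' table. These 3 outcomes follow from values already given above, so they are no separate support. With a probe sum over 2 errors, added after the data were seen, the count of detected members was 2, miR-520b and miR-520e. The count of 0 past 2-fold was the same under all 13 alternatives. A fold needs detection on at least 1 array, so no alternative under which no member is detected, of scaling or otherwise, could alter it. At 2 errors, miR-520e had a bound of 1.09-fold and miR-520b none above 1. With only the spots named NegativeControl as background, added after the data were seen, 1 member on the oe-NC array and 5 on the oe-HOTTIP array were above the mean in place of 0 and 2, because that mean is lower, at 2.96 and 2.33. With outlier spots kept these were 0 and 3, the third being miR-525-3p at 27.3, a value set by its single spot. No count of the other undetected miRNAs is given under either change, so nothing particular to the members is read from these counts. Arm pairs with 3p higher on both arrays were 9 of 15 with outlier spots kept or the brightest probe, and 11 with normexp, all chosen after the data were seen. The 40.3% of the other pairs holds for the main processing alone. Without their share under these alternatives, the counts of 9 and 11 cannot be set against them. No log2 difference of a member exists, so the alternatives planned for single members and their median gave no value. No paired analysis was possible because the design holds a single array for each treatment. Signal over background limits all member values, and 1 array per group leaves the differences between groups without any error between samples.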
